A study of Mus musculus with 6 samples.

Results

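The genes described here are 7 transcription factors through which the circadian clock reaches its target genes: Dbp, Tef, Hlf, Nfil3, Bhlhe40, Bhlhe41 and Ciart. They were chosen by name among the 50559 genes of the deposited count table, all 7 were found there, and all 7 had enough counts to be tested. The libraries are RNA-seq of mouse hypothalamus, 3 from wild-type animals and 3 from animals with a deletion of SRC-1 (steroid receptor coactivator 1, a p160 coactivator of nuclear receptors encoded by Ncoa1). Whether the deletion was limited to some cells, and the strain, sex, age and time of day at collection of both groups, is not stated in the labels. The labels also do not say that replicates are separate animals, so p-values judge a difference against the spread between these libraries, which may be technical.

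The clock is a feedback loop in which CLOCK (or NPAS2) and BMAL1, encoded by Arntl, bind E boxes and switch on the Per and Cry genes, whose products then block them. The same E boxes drive output factors. DBP, TEF and HLF form the PAR bZIP family (leucine zipper proteins with a proline and acidic amino acid rich region), which activate genes with a D box, and NFIL3 is a related bZIP protein that represses from the same element. BHLHE40 and BHLHE41, also called DEC1 and DEC2, are helix-loop-helix repressors that bind E boxes themselves, and CIART, also called CHRONO, is a repressor that binds BMAL1. The suprachiasmatic nucleus of the hypothalamus holds the master clock, but other cells of the tissue have clocks as well.

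Promoters of 6 of the 7 members, all but Bhlhe40, matched the RefSeq promoter sequences (build GRCm38.p6), with 7 entries because Tef has a pair of start sites. The 250 bases before each start were searched on both strands for the E box CACGTG, which reads the same on both strands. They were also searched for the related CACGTT, for the D box as TTATGTAA or TTACGTAA, for the ROR element (RORE) and for the cAMP response element TGACGTCA. No match overlapped another. The E box was present in Ciart, Bhlhe41 and both Tef promoters, and these 4 windows are shown because they carry the element through which CLOCK and BMAL1 act, with the E boxes in capitals. They lie at chr3:95882229-95882478 (minus strand), chr6:145865421-145865670 (minus strand), chr15:81802423-81802672 and chr15:81811164-81811413 (both plus strand).
Ciart: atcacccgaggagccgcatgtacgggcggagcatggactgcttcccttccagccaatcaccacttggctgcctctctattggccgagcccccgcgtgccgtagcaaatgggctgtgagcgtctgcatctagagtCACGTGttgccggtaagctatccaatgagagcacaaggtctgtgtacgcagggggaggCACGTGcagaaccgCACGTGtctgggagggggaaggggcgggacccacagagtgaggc
Bhlhe41: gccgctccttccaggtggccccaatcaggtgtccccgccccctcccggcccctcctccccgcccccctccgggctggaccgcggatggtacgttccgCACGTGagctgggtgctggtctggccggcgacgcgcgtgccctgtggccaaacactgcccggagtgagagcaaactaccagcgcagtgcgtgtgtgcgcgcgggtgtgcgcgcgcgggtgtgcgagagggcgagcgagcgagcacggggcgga
Tef upstream start: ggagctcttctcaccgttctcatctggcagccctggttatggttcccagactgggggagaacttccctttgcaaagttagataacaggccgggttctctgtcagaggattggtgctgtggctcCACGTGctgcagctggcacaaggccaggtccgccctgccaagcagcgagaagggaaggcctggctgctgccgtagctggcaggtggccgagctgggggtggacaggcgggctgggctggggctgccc
Tef downstream start: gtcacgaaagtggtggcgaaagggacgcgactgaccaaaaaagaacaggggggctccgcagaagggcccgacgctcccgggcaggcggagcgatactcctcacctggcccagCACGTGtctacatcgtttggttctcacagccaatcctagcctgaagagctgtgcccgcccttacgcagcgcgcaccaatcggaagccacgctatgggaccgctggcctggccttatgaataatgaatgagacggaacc

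Ciart held 3 E boxes, at 116 to 111, 58 to 53 and 44 to 39 bases before the start. At least 1 E box was found in 6.02% of the 32851 promoters in the table, and 3 or more in 20 of them (0.0609%). Bhlhe41 held 1 E box at 153 to 148 bases before its start, and the Tef promoters held 1 each, at 127 to 122 and at 138 to 133. The Dbp, Hlf and Nfil3 windows held no E box, and Hlf had a cAMP response element at 9 to 2 bases before its start, as in 1.55% of promoters. No member had the CACGTT, D box or ROR sequences in this window, which occurred in 3.85%, 0.819% (TTATGTAA), 0.113% (TTACGTAA) and 0.177% of promoters. A match describes letters only and is not evidence of binding, and Dbp is known to be regulated from E boxes elsewhere in its gene.

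Ncoa1 was examined first as a check of the labels. It had 5180, 4630 and 5406 counts in the wild-type libraries, against 1692, 1478 and 1766 in the knockout libraries, and it fell by 1.71 on the log2 scale (SE 0.065, adjusted p 1.87e-06 in edgeR's quasi-likelihood test). Every library thus matched its label. Totals ran from 36613507 to 46755553 counts per library. The marker lists of other cells moved between the genotypes: 8 of 12 ependymal and tanycyte genes fell, led by Gpr50 (log2 fold change -1.51), Frzb (-1.32), Rax (-2.31) and Vim (-0.80), and 6 of 12 oligodendrocyte genes rose, led by Opalin (1.00), Cldn11 (0.53), Aspa (0.76) and Cnp (0.54). Their summed levels were 213.9 to 223.5 and 75.4 to 99.2 CPM for the first list, and 4307 to 5514 and 6995 to 9326 CPM for the second, wild type first, and their part in the levels of the members was not tested. With 1 library left out, these numbers ran from 2 (without knockout replicate 1) to 9 and from 1 (without wild-type replicate 1) to 8. In both lists all 12 genes had an unadjusted p under 0.05 in edgeR and groups that did not overlap, against 13% and 17.6% of all tested genes. DESeq2, limma-voom and limma-voom with quality weights called 11, 8 and 8 of the first list, and 12, 5 and 10 of the second. Also changed were 1 of 9 pituitary genes (Pitx1, lower, and 2 genes without wild-type replicate 3 or knockout replicate 2), 1 of 10 meningeal genes (Lum, lower, with 0 genes without wild-type replicate 1 and 4 without wild-type replicate 3) and 1 of 9 cortical genes (Tbr1, higher). For the pituitary, meningeal and cortical lists DESeq2 called 3, 4 and 2, limma-voom 2, 0 and 1, and limma-voom with quality weights 2, 2 and 1. At an unadjusted p under 0.05 in edgeR there were 5, 5 and 4 of them. All 10 meningeal log2 fold changes were negative (median -1.55). The summed meningeal level was 182, 319 and 68.5 CPM in wild-type libraries, against 63.9, 62.6 and 66.3 CPM in knockout libraries. Of the 9 pituitary genes 7 were negative and 2 positive (median -1.21). Of these, Cga had 184, 225 and 502 counts in wild-type libraries, against 15, 1 and 3 in knockout libraries (adjusted p 0.056 in edgeR). None of the neuron (11), astrocyte (10), microglia (9), endothelial (11) or choroid plexus (10) markers passed in edgeR, apart from 1 choroid plexus gene without wild-type replicate 3. At an unadjusted p under 0.05 there were 1, 4, 2, 2 and 5 of these, DESeq2 called 1, 1, 1, 1 and 4, limma-voom 0, and limma-voom with quality weights called 3, all of the choroid plexus. In bulk tissue, fewer cells of a type and less RNA per cell cannot be told apart, here and in all results that follow.

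The levels of the members differed widely. To compare genes, levels were taken per exon length, as RPKM (TMM-normalised counts per kilobase of exon, scaled to library size). Tef, the thyrotroph embryonic factor, was highest in wild type with 49.8 ± 3.74 RPKM (SD, n = 3), followed by Bhlhe40 with 19.85 ± 1.599. Dbp, named for a site in the albumin promoter, had 15.7 ± 1.12, and Hlf, the hepatic leukemia factor, had 14.8 ± 1.604. Bhlhe41 had 8.94 ± 0.356, Ciart 6.61 ± 1.16 and Nfil3 1.79 ± 0.0760. Of the neighbours in this order, Dbp and Hlf alone overlapped over the wild-type libraries. In the knockout Dbp (16.3 to 21.5 RPKM) overlapped Bhlhe40 (18.2 to 20.4) and no longer Hlf (12.9 to 15.5), and Bhlhe41 (8.18 to 9.52) overlapped Ciart (5.64 to 8.43). The exon length counts every annotated exon, so a gene with alternative exons is divided by more bases than a single transcript has.

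**Figure D1:**
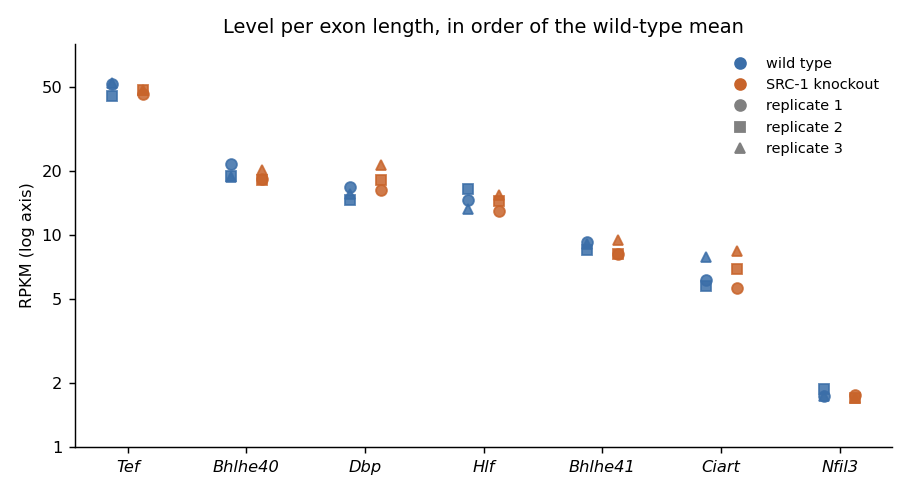
RPKM of the 7 genes (vertical log axis) in order of the wild-type mean, with 1 point per library, blue for wild type and orange for knockout. Tef lies above the rest at 45.5 to 52.3 in wild type, and Nfil3 below it at 1.74 to 1.88.

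The knockout was then compared with wild type. None of the 7 passed at an adjusted p under 0.05 in edgeR, where 0.834% of the 20257 tested genes did (0.242% higher and 0.592% lower), and none was called by DESeq2 (4.25% of its tested genes), limma-voom (0.928%) or limma-voom with sample quality weights (2.33%). At an unadjusted p under 0.05 there was 1 of 7, Dbp, against 13% of all genes. In none of the 7 did the groups separate, whereas they did not overlap in 17.6% of all genes. The median log2 fold change of the members was -0.051, with 2 positive and 5 negative, beside 0.0042 over all tested genes.

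**Figure D2:**
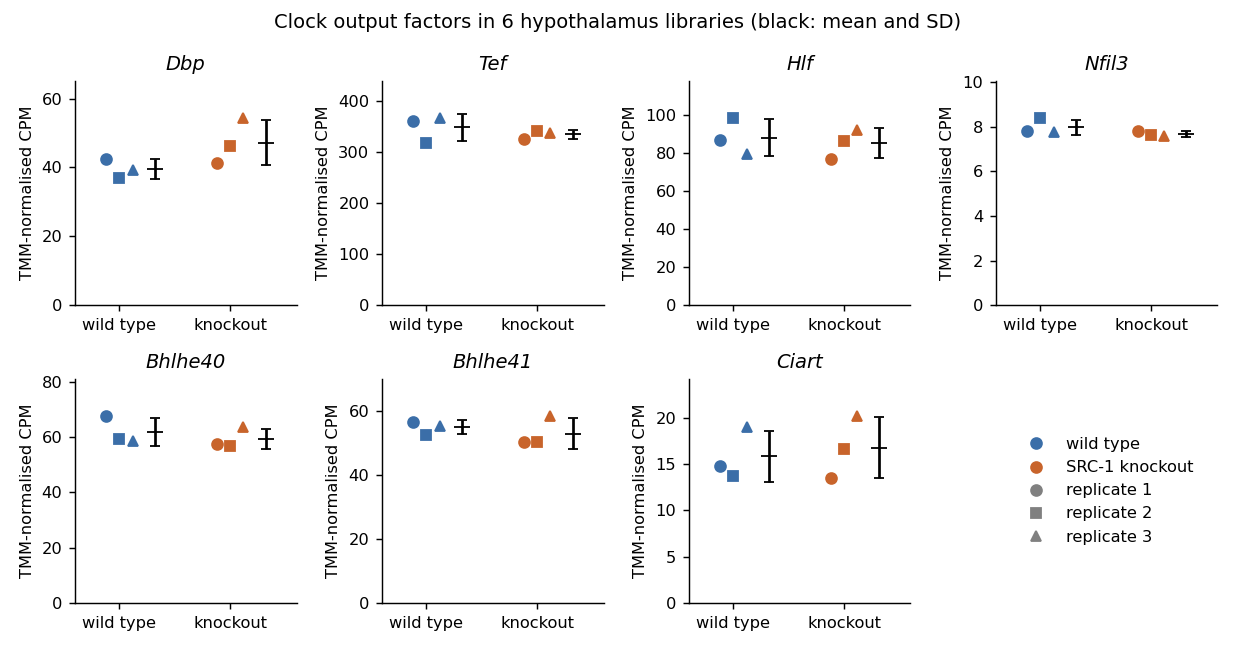
TMM-normalised CPM (vertical axis, from 0) of each gene in the 3 wild-type (blue) and 3 knockout (orange) libraries, with the mean and SD in black. The groups overlap in all 7 panels, and Dbp has its 2 highest values, 46.1 and 54.3, in the knockout.

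Among the PAR bZIP activators, Dbp (chromosome 7, 45354518 to 45359627, plus strand, GRCm39) had the largest difference. Its levels in CPM, counts scaled to library size, were 42.6, 36.95 and 39.4 in wild-type libraries, against 41.3, 46.1 and 54.3 in knockout libraries. Knockout replicates 2 and 3 lay above all wild-type libraries, and knockout replicate 1 lay among them. The means were 39.6 ± 2.84 and 47.2 ± 6.54 CPM (SD, n = 3 each). The log2 fold change was 0.25 ± 0.10 (SE) with a 95% interval from 0.028 to 0.48. In the edgeR fit its unadjusted p was 0.0313 and its adjusted p 0.318. The log2 fold change was 0.14 without knockout replicate 3, where the adjusted p was 0.475. Exons of Sphk2, on the other strand, cover 21.3% of Dbp's exons, and read pairs that overlap exons of both genes were not counted. Sphk2 itself had a log2 fold change of -0.11 ± 0.067 (adjusted p 0.575).

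Tef (chromosome 15, 81686874 to 81711064, plus strand) had 360.4, 317.9 and 365.5 CPM in wild-type libraries, against 324.6, 340.4 and 337.9 in knockout libraries. All knockout values lay inside the wild-type range. With 12039 to 15422 counts per library it was the most deeply counted member, and its log2 fold change of -0.058 ± 0.075 had a 95% interval from -0.22 to 0.11, or 0.856-fold to 1.08-fold. Hlf (chromosome 11, 90227361 to 90281743, minus strand) had 86.8, 98.2 and 79.2 CPM in wild-type libraries, against 76.9, 86.5 and 92.3 in knockout libraries. Its highest value was in a wild-type library and its lowest in a knockout library, with 4 values between. The log2 fold change was -0.047 ± 0.093, with a 95% interval from -0.25 to 0.16, and it was 0.039 without wild-type replicate 2 and 0.024 without knockout replicate 1.

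Nfil3 (chromosome 13, 53121245 to 53136914, minus strand), the repressor of D boxes, was low and even. It had 7.80, 8.37 and 7.77 CPM in wild-type libraries, against 7.82, 7.64 and 7.56 in knockout libraries, from 303 to 345 counts per library. The libraries of both groups were intermixed. Its log2 fold change was -0.057 ± 0.10, with a 95% interval from -0.29 to 0.17. Its coefficient of variation was 4.25% in wild type and 1.71% in the knockout, both below the 5.60% and 5.54% that counting alone gives on average at this depth.

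Because the activators and Nfil3 compete for D boxes, their balance was computed per library from the RPKM values. The sum of Dbp, Tef and Hlf was 47.5, 40.85 and 46.6 times Nfil3 in wild-type libraries, against 43.2, 47.6 and 50.4 times in knockout libraries, and these ranges overlapped (45.0 ± 3.62 and 47.1 ± 3.60, SD, n = 3 each). Dbp made up 20.3%, 19.1% and 19.2% of the summed RPKM of the 3 activators in wild-type libraries, against 21.6%, 22.4% and 25.1% in knockout libraries. These ranges did not overlap, and the exact two-sided permutation test gave p = 0.1, the smallest possible with 3 against 3, and 0.3 when adjusted over the 6 ratios examined. Dbp relative to Hlf showed the same separation, at 1.15, 0.884 and 1.17 in wild-type libraries, against 1.26, 1.25 and 1.38 in knockout libraries (exact permutation p = 0.1, adjusted 0.3). Both of these ratios have Dbp as numerator, so they are not independent. Dbp relative to Nfil3 overlapped, at 9.645, 7.788 and 8.938 in wild-type libraries, against 9.329, 10.66 and 12.67 in knockout libraries (exact permutation p = 0.2, adjusted 0.4). The Tef share of the summed RPKM also overlapped (exact permutation p = 0.3, adjusted 0.45). The shares of Dbp were chosen for description after the values were seen. A ratio within a library does not depend on how libraries are scaled to each other.

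**Figure D3:**
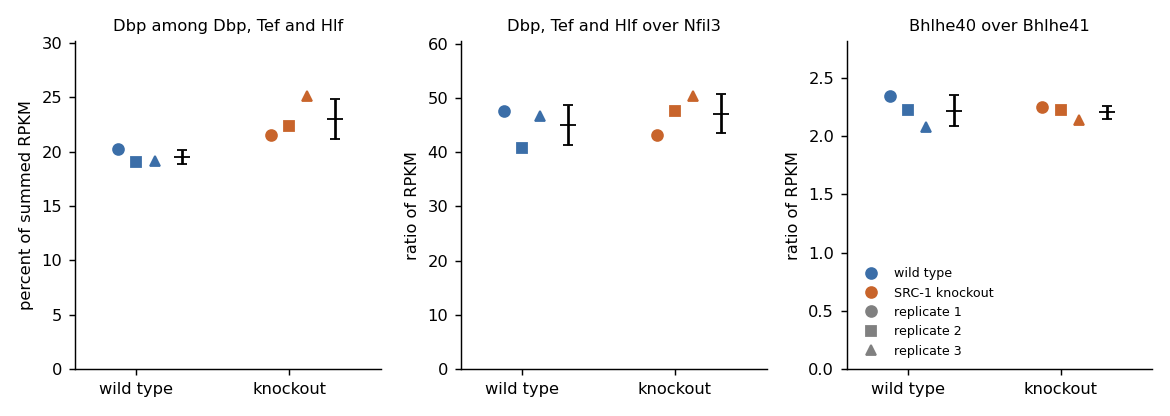
Dbp as a percent of the summed RPKM of Dbp, Tef and Hlf (left), the sum of those 3 over Nfil3 (middle) and Bhlhe40 over Bhlhe41 (right), per library, with mean and SD in black and vertical axes from 0. The left panel alone shows separate groups, 19.1% to 20.3% in wild type and 21.6% to 25.1% in the knockout.

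The E-box repressors Bhlhe40 and Bhlhe41 followed. Bhlhe40 (chromosome 6, 108637590 to 108643886, plus strand) had 67.5, 59.3 and 58.6 CPM in wild-type libraries, against 57.4, 56.7 and 63.5 in knockout libraries. Wild-type replicate 1 was highest, and the other wild-type libraries lay below knockout replicate 3. The log2 fold change was -0.061 ± 0.079, with a 95% interval from -0.24 to 0.11, and it was 0.0058 without wild-type replicate 1. Bhlhe41 (chromosome 6, 145803969 to 145811146, minus strand) had 56.6, 52.3 and 55.4 CPM in wild-type libraries, against 50.1, 50.1 and 58.3 in knockout libraries. Here 2 knockout libraries were lowest and the third was highest of all 6, so the groups overlapped. Its log2 fold change was -0.051 ± 0.078, with a 95% interval from -0.22 to 0.12. Per length, Bhlhe40 stood at 2.35, 2.23 and 2.08 times Bhlhe41 in wild-type libraries, against 2.25, 2.23 and 2.14 times in knockout libraries.

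Ciart (chromosome 3, 95785812 to 95789775, minus strand), the member with 3 E boxes before its start, was the most variable. It had 14.8, 13.7 and 19.0 CPM in wild-type libraries, against 13.5, 16.6 and 20.2 in knockout libraries. Replicate 3 was the highest of each genotype, and the genotypes overlapped. Its coefficient of variation was 17.6% in wild type and 19.9% in the knockout, where counting alone gives 3.96% and 3.74%. The medians over the 12071 genes with at least 5 CPM in both groups were 6.53% and 6.17%. The log2 fold change was 0.083 ± 0.17, with the widest 95% interval of the 7, from -0.31 to 0.47, and it was -0.072 without knockout replicate 3 and -0.0086 without wild-type replicate 2. The other members with an E box in the windows shown, Tef and Bhlhe41, had coefficients of variation of 7.50% and 3.98% among wild-type libraries and of 2.55% and 8.93% among knockout libraries. Dbp, Hlf and Nfil3, with no E box there, had 7.17%, 10.8% and 4.25% among wild-type libraries. Among knockout libraries they had 13.85%, 9.11% and 1.71%.

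The adjusted p of the 6 members other than Dbp ran from 0.831 (Bhlhe40) to 0.903 (Ciart) in edgeR. Their intervals limit what was detectable. For Tef, Hlf, Nfil3, Bhlhe40 and Bhlhe41 they reached from 0.819-fold at the lowest to 1.13-fold at the highest, while those of Dbp (1.02 to 1.39) and Ciart (0.808 to 1.39) reached further up.

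**Figure D4:**
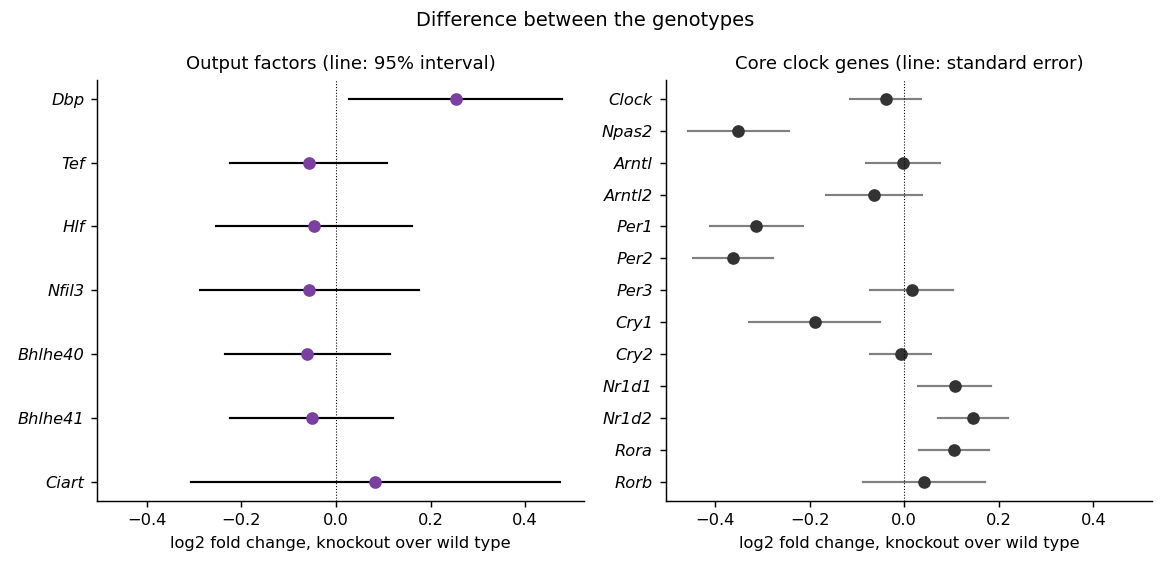
Log2 fold change, knockout over wild type (horizontal axis), of the 7 output factors with 95% intervals (left) and of 13 core clock genes with standard errors (right). Dbp alone on the left has an interval above 0 (0.028 to 0.48), unadjusted for the number of genes tested, and Per1, Per2 and Npas2 lie lowest on the right.

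Seen by library, the members did not shift as a block. In knockout replicate 3, relative to the wild-type mean on the log2 CPM scale, Dbp stood at 0.45, Ciart at 0.36, Bhlhe41 at 0.091, Hlf at 0.073 and Bhlhe40 at 0.043, while Tef (-0.039) and Nfil3 (-0.077) stood below it. In knockout replicate 1, Dbp was 0.062 above the wild-type mean and the other 6 were below it, from -0.029 for Nfil3 to -0.21 for Ciart. Knockout replicate 2 had Dbp at 0.22 and Ciart at 0.085, with the other 5 between -0.020 and -0.13.

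**Figure D5:**
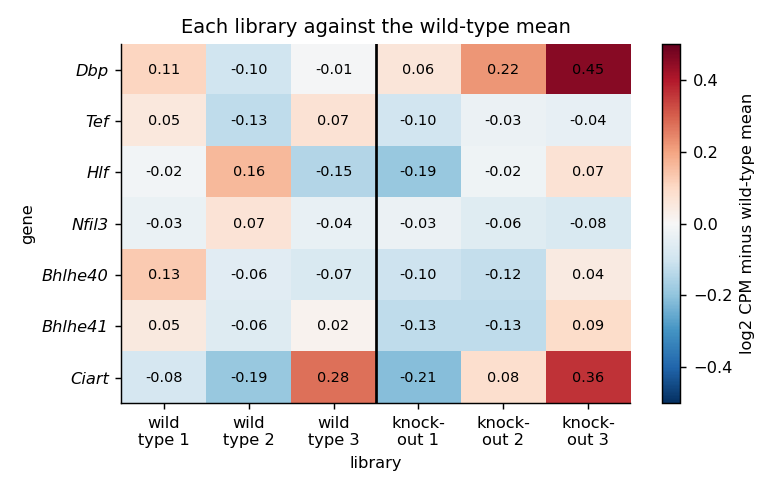
Log2 CPM of each gene (rows) in each library (columns) minus the wild-type mean of that gene, with red for higher and blue for lower. The strongest colours are Dbp (0.45) and Ciart (0.36) in knockout replicate 3.

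For each member, the named genes closest in pattern were those with the highest Pearson r of log2 CPM over the 6 libraries, among 13927 genes with at least 1 CPM. They are a description, since with 6 points between 46 (Hlf) and 261 (Bhlhe41) genes reached an r of 0.9 or more. For Dbp they were Ube2v2 (0.99), a ubiquitin-conjugating enzyme variant, Micu3 (0.99), a regulator of the mitochondrial calcium uniporter, and Lactb (0.985), a mitochondrial protein. Ube2v2 had 40.2, 37.0 and 38.5 CPM in wild-type libraries, against 39.7, 43.1 and 49.9 in knockout libraries, with the same libraries highest and lowest as Dbp. For Ciart they were the mitochondrial ribosomal protein Mrps28 (0.98), the copper chaperone Atox1 (0.98) and the respiratory chain subunit Uqcrb (0.98). Those of Tef were Pnma1, Aldh3b2 and Eefsec, and those of Hlf were Ccdc122, Smc5 and Ggh. Nfil3 was followed most closely by Arhgdib, Wars2 and Jcad, Bhlhe40 by Rab27b, Gemin8 and Washc4, and Bhlhe41 by Rsf1, Golm2 and Cdr1os. None of these genes is another output factor or a core clock gene.

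The core clock genes complete the loop around these factors. None of the 13 passed in edgeR, with a median log2 fold change of -0.0075. An unadjusted p under 0.05 was found for 3, beside 13% of all tested genes. The same 3 did not overlap between groups, beside 17.6% of all tested genes. These were Per2 (37.4 ± 1.81 and 29.1 ± 2.90 CPM in wild type and knockout, log2 fold change -0.36 ± 0.085, adjusted p 0.0807), Npas2 (-0.35 ± 0.11, adjusted p 0.177) and Per1 (-0.31 ± 0.098, adjusted p 0.192). DESeq2 and limma-voom with quality weights each called 1 of the 13, Per2 (lower), and limma-voom called 0. Arntl had -0.0025 ± 0.078 and Clock -0.039 ± 0.075. Nr1d1 and Nr1d2, the REV-ERB repressors of Arntl and Nfil3, had 0.11 ± 0.077 and 0.15 ± 0.074 (adjusted p 0.647 and 0.462). Of 10 clock kinases and ubiquitin ligase genes none passed, with a median of -0.015. An unadjusted p under 0.05 was found for 2, Csnk1d and Timeless, beside 13% of all tested genes. The other 3 tools called 0.

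Genes under D-box or other clock control were examined as the next step downstream. Of 19, none passed in edgeR and 6 had an unadjusted p under 0.05 (beside 13% of all tested genes). The median was -0.16, with 13 negative, beside 0.0042 over all tested genes. Per1, Per2, Per3, Nr1d1 and Nr1d2 were also counted among the core clock genes, so the lists are not independent. DESeq2 called 1 (Per2), limma-voom 0 and limma-voom with quality weights 1 (Per2), and 1 (Dio2, lower) passed in edgeR without wild-type replicate 1. Besides Per1 and Per2, those with an unadjusted p under 0.05 were Ces2g, Fmo2, Dio2 and Cipc. Ces2g, a carboxylesterase, had 11, 13 and 15 counts in wild-type libraries, against 7, 3 and 2 in knockout libraries (log2 fold change -1.75 ± 0.49, adjusted p 0.143 in edgeR). Dio2, the deiodinase that activates thyroid hormone, had -1.24 ± 0.45 (adjusted p 0.353), with 322, 581 and 1059 counts in wild-type libraries, against 312, 269 and 295 in knockout libraries. Fmo2, a flavin monooxygenase, had -1.06 ± 0.39 (adjusted p 0.305), and Cipc, a CLOCK-interacting repressor, had 0.16 ± 0.063 (adjusted p 0.306). Pdxk, pyridoxal kinase, a known target of the PAR bZIP factors in brain, had 365 ± 34.8 CPM in wild type and 358.8 ± 19.95 in the knockout (log2 fold change -0.024 ± 0.085, adjusted p 0.944). Wee1, a kinase of the cell cycle with E boxes, had -0.00091 ± 0.080, and Usp2, a deubiquitinase that cycles in most tissues, had -0.16 ± 0.11 (adjusted p 0.999 and 0.623). Tshb, a thyrotropin subunit made by the thyrotrophs from which TEF has its name, had 70, 82 and 107 counts in wild-type libraries, against 72, 79 and 60 in knockout libraries.

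Relatives by protein family were read as well. Of 9 tested bZIP relatives, C/EBP and ATF genes, none passed (median -0.070, 0 at an unadjusted p under 0.05, 0 by the other tools). Of 12 HES, HEY and ID genes none passed (median 0.0011, 0 by the other tools). In that list 3 had an unadjusted p under 0.05, beside 13% of all tested genes.

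Lists of inputs that can move clock genes within hours were read beside the members. Of 15 activity-induced genes 3 fell, Egr1 (-1.14 ± 0.12), Junb (-0.88 ± 0.14) and Fos (-1.51 ± 0.20), with a median of -0.68. With 1 library left out, from 1 (without wild-type replicate 1) to 4 (without wild-type replicate 3) passed. At an unadjusted p under 0.05 in edgeR there were 8 of the 15, and DESeq2 called 6, limma-voom 3 and limma-voom with quality weights 5. Over all tested genes the share at that unadjusted p was 13%. DESeq2 called 4.25% of its tested genes, limma-voom 0.928% and limma-voom with quality weights 2.33%. These shares also apply to the lists that follow. None of 17 glucocorticoid-responsive genes passed (6 at an unadjusted p under 0.05, DESeq2 2, limma-voom 0, with quality weights 0, and 2 in edgeR without wild-type replicate 1), while all 17 were negative with a median of -0.46, with Per1, Cdkn1a and Tsc22d3 shared with the D-box list and Dusp1 with the activity list. The summed level of that list was 592, 786 and 1125 CPM in wild-type libraries, against 539, 572 and 662 CPM in knockout libraries. Wild-type replicate 3 and knockout replicate 3, the libraries with most Ciart, were also the highest of their groups here. The rest of the order differed. Wild-type replicate 2 had a higher sum than knockout replicate 3, but less Ciart (13.7 against 20.2 CPM). The part of these inputs in the levels of the members was not tested. Of 12 hypoxia-responsive genes none passed (median -0.12, 4 at an unadjusted p under 0.05, 0 by the other tools, and 1 in edgeR without knockout replicate 2).

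Markers of the suprachiasmatic nucleus, 17 genes that were all detected, were read to check the labelled tissue. They did not all move together, so their sum is only a rough reading of how much of this nucleus a library holds. Lhx1, for example, had 418, 713 and 617 counts in wild-type libraries, unlike Vip. Between the genotypes 3 of the 17 had a positive log2 fold change and 14 a negative one. Vip, the defining peptide of this nucleus, had 819, 366 and 75 counts in wild-type libraries, against 378, 57 and 391 in knockout libraries. Avp had 6117, 3641 and 1023 and then 3285, 1279 and 3174. The summed level of the list was 553.4, 413.8 and 271.2 CPM in wild-type libraries, against 332.5, 271.0 and 375.4 CPM in knockout libraries. None of the 17 passed in edgeR (median -0.59, 4 at an unadjusted p under 0.05, DESeq2 1, limma-voom 0, with quality weights 1, and 1 in edgeR without knockout replicate 3). The sum was highest in wild-type replicate 1, and knockout replicate 2 and wild-type replicate 3 were nearly tied as its lowest. Bhlhe40 was also highest in wild-type replicate 1. It was lowest in knockout replicate 2 (56.7 CPM), with 57.4 CPM in knockout replicate 1 and 58.6 CPM in wild-type replicate 3. Between these extremes the orders differed. The sum was higher in wild-type replicate 2 than in knockout replicate 3, where Bhlhe40 had 59.3 and 63.5 CPM. Dbp was highest in knockout replicate 3 and lowest in wild-type replicate 2, and Tef was highest in wild-type replicate 3 and lowest in wild-type replicate 2. Whether the share of this nucleus bears on the members was not tested.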

How the data were processed

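Counts of read pairs per gene in 6 libraries were used as the authors deposited them, unnormalized. The submitters' processing notes name STAR 2.7.10a as aligner. Pairs were counted with featureCounts over exons of the RefSeq annotation of mm39 (GRCm39), without strand, per the file headers (version 2.0.0 there, 2.0.3 in the processing notes). The command line sets no option for reads that overlap several genes, so these were not counted. Exons shared with another gene cover 21.3% of Dbp, 4.64% of Ciart, 3.79% of Bhlhe40 and none of the other members.

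The comparison used edgeR 4.0.16 (R 4.3.3) over all 20257 genes that passed its default filter (minimum count 10), with TMM scaling, robust quasi-likelihood tests and a threshold of 0.05 on the p-value after Benjamini-Hochberg adjustment. Each standard error is the absolute log2 fold change divided by the root of F, and 95% intervals use the t distribution with the fit's degrees of freedom. Alternatives used RLE or no scaling, other filters, a replicate block, DESeq2 1.42.0, limma 3.58.1 (voom), and each library left out. The common biological coefficient of variation was 12.3%. Libraries of a group differed by more than sampling noise (chi-square per degree of freedom 8.87 to 18.9).

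The members and the 19 gene lists were chosen with earlier results of these data known. A gene of the core clock and D-box lists is not reported here and was left out of their counts and medians. Genes beside the members were named as those of a list that passed (at most 4, lowest p first), else at most 2, plus core clock genes and the 3 genes closest in pattern to each member (clones, pseudogenes, Gm and Rik symbols left out). Pdxk, Wee1, Usp2, Tshb, Fmo2, Dio2, Cipc, Cdkn1a, Tsc22d3, Dusp1, Vip, Avp, Lhx1, Cga and Sphk2 were named outside that rule, some after their values were seen.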

Additional observations from a re-analysis of the deposited data

How the results depend on the processing

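The count of 0 among the 7 members held under all 16 alternatives, including an adjusted p under 0.1. Dbp was closest to the threshold with no filter (adjusted p 0.0973), and its log2 fold change ran from 0.14 to 0.39 and its adjusted p to 0.488. Signs turned for values near 0. Without the 2 libraries with the most growth hormone counts, a setting added after seeing the data, Hlf had 0.0050, Bhlhe40 0.023 and Bhlhe41 0.0037. With 1 library left out, Hlf ran from -0.12 to 0.039, Bhlhe40 from -0.11 to 0.0058, Ciart from -0.072 to 0.24, Tef from -0.12 (without wild-type replicate 2) to -0.019 (without wild-type replicate 3), Bhlhe41 from -0.13 (without knockout replicate 3) to -0.013 (without knockout replicate 1) and Nfil3 from -0.075 to -0.021 (without wild-type replicate 2). The difference in the Dbp share of the PAR bZIP sum, 3.52 percentage points, ran from 2.46 to 4.25 points.

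Over all genes 169 were called. The count was 66 with library totals alone, 966 with no filter, 84 with the filter of 1 CPM in 3 libraries, 810 with DESeq2, 473 with quality weights, 480 at an adjusted p under 0.1, 29 without the growth hormone pair, and 36 (without knockout replicate 1) to 260 (without knockout replicate 2) with 1 library left out, with 69 without wild-type replicate 1. Without knockout replicate 3, 123 of the calls were higher and 89 lower, against 49 and 120 with all libraries. Among core clock genes, 2 were called with no filter (Per1 and Per2) and 1 with DESeq2 and with quality weights. The D-box and clock-controlled list had 3, 1 and 1 under these settings and 0 to 1 with 1 library left out. The cause of these differences was not tested.

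The titles give both genotypes replicate numbers 1 to 3. Same-numbered libraries had correlations of -0.206, 0.351 and 0.224 in their deviations from the group means, so the numbers were not taken as pairs. With a replicate block 155 genes and 0 members were called. The depth, 303 or more counts per member and library, limits Nfil3 most.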
